A study of Homo sapiens with 44 samples.

Results

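Interferon-stimulated genes are genes whose transcription rises when a cell receives an interferon signal. A list of 40 of them was followed in 4 human acute myeloid leukaemia (AML) cell lines after RNA interference against the kinases GSK-3α and GSK-3β, encoded by GSK3A and GSK3B. Members were matched by gene symbol to array probe sets that name a single gene, and for a gene with several such probe sets the brightest by its mean over the 44 arrays stood for it. This gave a value for 38 of the 40 members, out of 12165 genes measured in the same way. STAT2 and TRIM21 matched no single-gene probe set and were not analysed here.

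The lines were U937, MOLM-14, THP-1 and HL-60, which are established human myeloid lines grown in culture. In each line the RNA came from cells carrying a scrambled hairpin as control (3 arrays), hairpin 5 or hairpin 6 against GSK3A, or hairpin 1 or hairpin 2 against GSK3B (2 arrays per hairpin), which gives 20 groups. All groups, controls included, carried a hairpin vector and were under puromycin selection at 1 µg per mL from 48 h after infection, and RNA was taken 48 h after selection began. The comparisons ask how the members differ between the control cells of the lines, and whether they change when either kinase is targeted. No untreated cells are among the 20 groups, so control levels are not levels of untreated cells.

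Type I interferon binds a receptor made of IFNAR1 and IFNAR2, whose kinases JAK1 and TYK2 phosphorylate transcription factors such as STAT2. With IRF9, STAT2 is part of a complex that enters the nucleus and binds the interferon-stimulated response element in promoters of responding genes. The products sense or degrade viral RNA, conjugate the ubiquitin-like protein ISG15, trap virus at membranes or feed back on the pathway, and in myeloid cells many are expressed at a basal level without infection. GSK-3α and GSK-3β are closely related serine and threonine kinases that act in many signalling routes.

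The response element is the sequence feature that this class of genes is known for, so a few promoters are shown with its core in capitals. RefSeq promoters (build GRCh38.p14, 250 bases before to 50 after each gene's start) were found for 31 of the 40 members. The core searched was GAAA, any 2 bases and GAAA again, on both strands. Stretches from members that rose with the GSK3A hairpins are given first, each read 5′ to 3′ on the gene's own strand and ending before the start of transcription.
IFI6: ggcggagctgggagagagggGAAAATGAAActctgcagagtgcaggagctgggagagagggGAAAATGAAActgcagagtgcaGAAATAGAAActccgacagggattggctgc
BST2: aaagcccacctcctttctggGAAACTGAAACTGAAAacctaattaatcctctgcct
IFIH1: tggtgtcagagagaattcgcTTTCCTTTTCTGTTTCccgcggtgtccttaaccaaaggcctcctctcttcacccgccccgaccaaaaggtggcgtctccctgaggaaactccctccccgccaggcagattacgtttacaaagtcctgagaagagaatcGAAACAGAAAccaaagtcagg
ISG20: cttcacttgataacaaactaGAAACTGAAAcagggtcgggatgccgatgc
TRIM14: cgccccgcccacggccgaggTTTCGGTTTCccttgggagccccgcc
The next stretches come from members that did not pass the test with the GSK3A hairpins.
ISG15: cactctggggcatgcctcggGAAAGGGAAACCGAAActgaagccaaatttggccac
OAS3: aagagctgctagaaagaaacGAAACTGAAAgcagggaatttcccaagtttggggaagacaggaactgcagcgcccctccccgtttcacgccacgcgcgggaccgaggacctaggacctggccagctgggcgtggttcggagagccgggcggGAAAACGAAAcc
IFI44L: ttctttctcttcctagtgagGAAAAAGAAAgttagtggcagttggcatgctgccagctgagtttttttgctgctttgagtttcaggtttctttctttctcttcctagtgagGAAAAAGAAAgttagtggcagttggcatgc
The IFI6 stretch lies at chr1:27672256-27672368 on the minus strand, BST2 at chr19:17405725-17405780 (minus), IFIH1 at chr2:162318685-162318863 (minus), ISG20 at chr15:88638927-88638976 (plus) and TRIM14 at chr9:98119223-98119268 (minus). The ISG15 stretch lies at chr1:1013364-1013419 (plus), OAS3 at chr12:112938311-112938473 (plus) and IFI44L at chr1:78620264-78620404 (plus). IFI6 and IFIH1 carry the core at 3 places each, and in BST2, ISG15 and IFIH1 a pair of matches overlap.

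Counted by gene, the core was present for 19 of the 31 members with a promoter (61.3%) and for 4.38% of the 27305 genes in the promoter table. The interferon-gamma-activated site, searched as TTCNNNGAA on both strands and free to overlap the core, was present for 8 of 31 members (25.8%) and for 9.38% of all genes. Members that rose with the GSK3A hairpins held the core in 8 of 15 genes, and the other measured members in 10 of 14. The core was therefore found at promoters of members that rose and of members that did not. The gamma-activated site was present for 6 of 15 members that rose and for 2 of 14 other measured members, a difference that was not tested. IRF9, OAS1, SP110 and IFI35, which all rose, had the gamma-activated letters and no core in this window. A match is a description of letters and shows neither a bound site nor a cause.

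The deposited intensity had array medians between 18.95 and 22.9. Precision is limited by how many arrays each group has. Of the 38 members, 16 were above the median of the array medians (21.5) in all 20 groups and 1, GBP1, was above it in none. The GSK3B hairpins lowered GSK3B by log2 −1.56 ± 0.05 (limma adjusted p = 8.1e-19), and the GSK3A hairpins lowered GSK3A by −0.09 ± 0.03 (limma adjusted p = 0.0175). The GSK3A transcript therefore gave a weak check of its hairpins. All 8 measured myeloid markers were above the same median in at least 1 group. So were 3 of 4 plasmacytoid dendritic cell markers, 1 of 7 T and NK cell markers and 3 of 6 epithelial and stromal markers. None of the 4 measured B cell markers was in any group. Standing above this median therefore does not by itself mark the cells as myeloid. Fits used log2(intensity + 16), errors after ± are standard errors of the limma fit unless named SD, and adjusted p-values are Benjamini-Hochberg values over all 12165 genes with a threshold of 0.05. The labels name replicates but not separate cultures, so p-values may measure only technical spread between arrays.

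In control cells the members differed by line, and THP-1 was highest for most of them. In the moderated F-test of limma 37 of 38 members differed between the control groups, against 67.8% of all genes. The control mean was highest in THP-1 for 31 of 38 members, while 23.3% of all genes were highest there. For 27 members THP-1 also passed the pairwise test against each of the other lines, against 11.1% of all genes. The median log2 level over the members was 5.39 in HL-60, 5.59 in U937, 5.66 in MOLM-14 and 7.60 in THP-1. The same median over all genes lay between 5.71 and 5.79 in the 4 lines.

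MX1, a dynamin-like GTPase that blocks viral nucleocapsids, had an intensity of 342 ± 49.4 (SD, n = 3) in THP-1 controls. It was 12.9 ± 1.43 (SD, n = 3) in U937, 12.7 ± 0.323 (SD, n = 3) in HL-60 and 9.49 ± 0.215 (SD, n = 3) in MOLM-14. All lines other than THP-1 lay below the array median for MX1, so no fold is given. MX2, its relative that acts on nuclear entry of retroviruses, followed another order, with 472 ± 11.7 (SD, n = 3) in U937, 184 ± 5.12 in THP-1, 20.4 ± 4.08 in HL-60 and 14.1 ± 3.66 in MOLM-14. All neighbours in the MX2 order differed in the limma pairwise test, the closest pair being HL-60 and MOLM-14 (adjusted p = 0.00693).

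IFITM1, a membrane protein that hinders entry of enveloped viruses, ran from 398 ± 53 (SD, n = 3) in THP-1 to 9.38 ± 1.2 in HL-60, a level below the array median. IFI6, a small interferon-induced protein of internal membranes, was 998 ± 27.4 (SD, n = 3) in THP-1, 179.9 ± 23 in U937, 45.8 ± 7.37 in HL-60 and 34.9 ± 5.27 in MOLM-14. IRF9, the DNA-binding subunit of the interferon-activated complex, was 541 ± 17.7 (SD, n = 3) in THP-1 and between 39.9 and 71.4 in the other lines. OAS1, OAS2, IFIT1, IFI27, IFI44 and IFI44L shared this form, with means between 43.1 and 177 in THP-1 and between 5.95 and 19.5 elsewhere. These 6 genes were thus in the dim range of the array outside THP-1. OAS1 and OAS2 are synthetases whose product activates the ribonuclease RNase L, and IFIT1 binds foreign RNA ends.

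A smaller set had another leading line. TRIM22, a ubiquitin ligase of the tripartite motif family, was 1029.6 ± 144 (SD, n = 3) in MOLM-14 and 199.5 ± 21.6 in THP-1, the next line. GBP1 and GBP2, guanylate-binding GTPases, also had their highest mean in MOLM-14, but HL-60 did not differ past the test (limma adjusted p = 0.600 and 0.158). UBE2L6, MX2, IFI16 and IFI30 were highest in U937, each past the test against every other line. XAF1, an antagonist of an inhibitor of apoptosis, was 356 ± 24.6 (SD, n = 3) in THP-1 and 307 ± 68.8 in MOLM-14, which did not differ (limma adjusted p = 0.451), and 41.4 and 31.7 in HL-60 and U937. RIGI, BST2 and TRIM14 likewise had a leading pair that did not differ past the test.

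**Figure D1:**
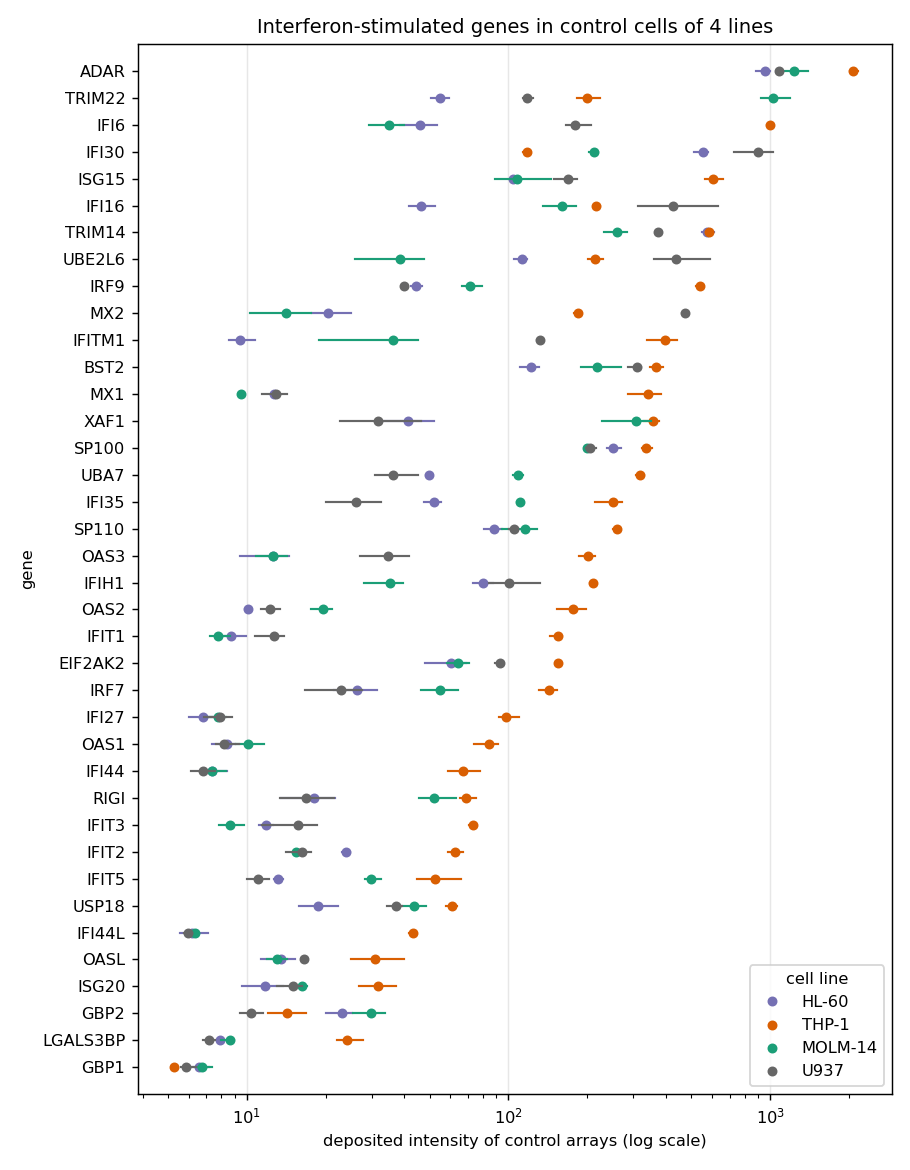
Deposited intensity (log scale) of the 38 measured members in control cells; points are means of 3 arrays per line and bars run from the lowest to the highest array. THP-1 has the highest mean for 31 genes, and TRIM22 is highest in MOLM-14 and MX2 in U937.

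With the GSK3A hairpins 20 of 38 members rose over the 4 lines and 1, USP18, fell. Among all genes 21% changed in this contrast, 10.8% upward and 10.2% downward. The median member change was log2 0.15, against 0.00 over all genes, and 31 members had a positive value. IFI16 rose by 0.64 ± 0.10, UBE2L6 by 0.59 ± 0.09, TRIM22 by 0.49 ± 0.06, MX2 by 0.47 ± 0.05, IFI6 by 0.45 ± 0.07 and IRF9 by 0.40 ± 0.06, with limma adjusted p between 4.0e-08 and 2.8e-05. UBA7, UBE2L6, TRIM14, TRIM22, SP110, IFI16, BST2 and IFI35 had a positive sign in each of the 8 values by line and hairpin. The lowest of these values was close to no change for TRIM14 (0.001), SP110 (0.010), UBA7 (0.012) and TRIM22 (0.022). Hairpins of a line share its controls, and the share of all genes with such signs was not counted. In whole-culture RNA, more expressing cells and more RNA per cell cannot be told apart.

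The member count moved with the model of the spread and with the position of the samples on the plate. The arrays fall in plate columns 1 to 6 and 7 to 11, per the labels, and each set holds every group. In each line the controls lie in columns 1, 2 and 7, while each hairpin has 1 array per set. The sets are therefore unbalanced, and differences between them enter the changes against control in the fit without a block. Within columns 1 to 6 the fit called 9 members (11.6% of all genes) with a median of 0.17, and within columns 7 to 11 it called 0 members (0.345% of all genes) with a median of 0.12 and 33 of 38 members positive. These fits have a single array per hairpin and line, and their spread takes in differences between hairpins and lines. With line and construct as a random block 13 members rose and none fell (10.4% of all genes), and with the plate columns as a block in each line 23 rose and 1 fell (33.2%). The calls gained with the plate block were ISG15 (0.17 ± 0.05), IFITM1 (0.17 ± 0.05) and OAS3 (0.13 ± 0.04).

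**Figure D2:**
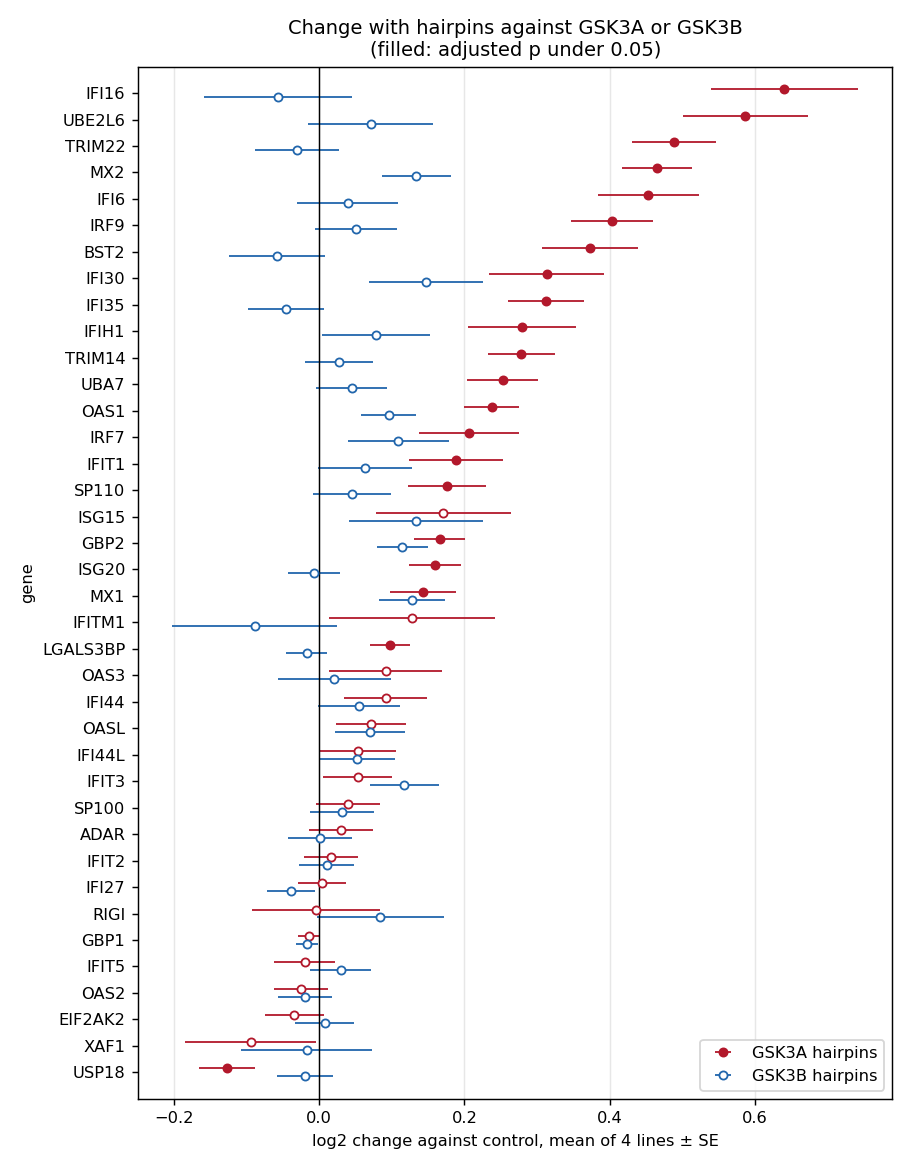
Log2 change of each member against control, averaged over the 4 lines, for the GSK3A hairpins (red) and the GSK3B hairpins (blue); bars are standard errors of the limma fit and filled points have an adjusted p under 0.05. The 20 members that rose with GSK3A hairpins run from LGALS3BP at 0.10 to IFI16 at 0.64, and no blue point is filled.

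Among the relay factors both measured members rose with the GSK3A hairpins. IRF9 intensities in U937 controls were 40.1, 39.6 and 40.1, in hairpin 5 arrays 119.5 and 81.4, and in hairpin 6 arrays 59.9 and 99.2. In MOLM-14 the IRF9 controls read 69, 66.2 and 79, hairpin 5 gave 151 and 151, and hairpin 6 gave 83.2 and 103. The GSK3A arrays lay above all controls in these lines. In HL-60 the IRF9 controls were 42.4 to 46.7 and hairpin 5 gave 78.6 and 81.6, while hairpin 6 gave 50.5 and 44.9, of which the lower lay within the control range. In THP-1, where controls read 549.9, 521 and 552, hairpin 5 gave 511 and 518 and hairpin 6 gave 374 and 405. All 4 THP-1 values lay below the controls, opposite to the other lines. IRF7, a factor that drives interferon gene transcription, rose by 0.21 ± 0.07 (limma adjusted p = 0.0334). The IRF7 call was lost in 10 of 44 fits that left out 1 array (adjusted p up to 0.0803) and under 6 of 16 other alternatives.

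Of the 9 members for RNA sensing and RNA decay, IFIH1, OAS1 and ISG20 rose and 6 did not pass. IFIH1, the cytosolic sensor of long double-stranded RNA, rose by 0.28 ± 0.07 (limma adjusted p = 0.00721). Its U937 intensities were 85.8, 84.3 and 132 in controls, 147 and 177 with hairpin 5, and 124 and 220.1 with hairpin 6, so that 1 hairpin 6 array lay within the control range, below the control of plate column 7. OAS1 rose by 0.24 ± 0.04 and ISG20, an exonuclease that degrades RNA, by 0.16 ± 0.04. RIGI, the sensor of short triphosphate RNA, had a change of −0.00 ± 0.09 (limma adjusted p = 0.982). EIF2AK2, the RNA-activated kinase PKR, had −0.03 ± 0.04, ADAR, which edits adenosines, had 0.03 ± 0.04, and OAS2, OAS3 and OASL ran from −0.03 to 0.09. The OAS family was therefore not called as a whole.

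In the ISG15 conjugation group the activating enzyme UBA7 and the conjugating enzyme UBE2L6 rose, the protease USP18 fell and ISG15 itself did not pass (0.17 ± 0.09, limma adjusted p = 0.223). With the plate columns as a block ISG15 passed (0.17 ± 0.05, limma adjusted p = 0.0099). UBE2L6 intensities in MOLM-14 were 47.6, 41.9 and 25.8 in controls, 136 and 78.4 with hairpin 5, and 94.3 and 64.9 with hairpin 6. In THP-1 the UBE2L6 controls read 201, 214 and 229, hairpin 5 gave 342 and 362, and hairpin 6 gave 233 and 262. In HL-60 the controls were 105 to 118, hairpin 5 gave 185 and 186 and hairpin 6 gave 138 and 138. Every GSK3A array of UBE2L6 in these lines lay above every control. In U937 the control of plate column 7 (590.4) stood above the others (362 and 360.4), and the GSK3A arrays (505 to 659) overlapped it.

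USP18, which removes ISG15 and restrains the receptor, fell by 0.13 on the log2 scale (SE 0.04, limma adjusted p = 0.0185). Its MOLM-14 controls were 48.5, 43.5 and 38.1, and the GSK3A arrays were 27.9, 26.2, 27 and 28.6, with no overlap. In U937 the USP18 controls were 34.5 to 39.1 and the GSK3A arrays 35.8 to 46.1, in HL-60 they were 15.8 to 22.3 and 15.3 to 21.7, and in THP-1 57.9 to 63.7 and 44.7 to 69.1. The groups overlapped in these 3 lines, and without MOLM-14 USP18 no longer passed, with −0.012 against control (limma adjusted p = 0.918) and 0.018 against the GSK3B hairpins in place of −0.11. UBA7 rose by 0.25 ± 0.05 (limma adjusted p = 3.6e-04).

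Among the GTPases MX1, MX2 and GBP2 rose and GBP1 did not pass. MX2 intensities in HL-60 were 18.4, 25.1 and 17.7 in controls, 72.4 and 60.3 with hairpin 5, and 35.7 and 31.7 with hairpin 6. In MOLM-14 the MX2 controls were 17.6, 10.3 and 14.5, hairpin 5 gave 61.1 and 47.6, and hairpin 6 gave 19.3 and 20.6. In both lines all GSK3A arrays lay above the controls, with hairpin 5 the higher. In U937, where MX2 is high in control cells, the controls were 474, 459.8 and 483. The U937 GSK3A arrays were 476, 501, 506 and 519, so the groups overlapped. MX1 rose by 0.14 ± 0.04 (limma adjusted p = 0.0218), and its adjusted p was 0.0567 without the THP-1 control replicate 1. In THP-1 the MX1 controls were 287, 355 and 383, hairpin 5 gave 539 and 558, and hairpin 6 gave 261 and 398.

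The IFIT family, which binds RNA or translation factors, contributed 1 call of 4. IFIT1 rose by 0.19 ± 0.06 (limma adjusted p = 0.0379), while IFIT2, IFIT3 and IFIT5 had changes of 0.02, 0.05 and −0.02. The IFIT1 call was lost in 13 of 44 fits that left out 1 array (adjusted p up to 0.0738) and under 8 of 16 other alternatives. In THP-1 the IFIT1 controls were 145, 158 and 159, hairpin 5 gave 218 and 193, and hairpin 6 gave 64.7 and 139. The hairpins of the same target therefore lay on opposite sides of the control. In U937 the IFIT1 controls were 13.9, 13.3 and 10.8 and the GSK3A arrays 35.9, 21.5, 22.5 and 26, without overlap, in a dim range.

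Of the TRIM and nuclear body members TRIM14, TRIM22, SP110 and IFI16 rose and SP100 did not pass (0.04 ± 0.04). IFI16 is a nuclear sensor of DNA. Its U937 controls were 336, 312 and 630.1, hairpin 5 gave 786 and 815, and hairpin 6 gave 729 and 1010.3. In MOLM-14 the IFI16 controls were 164, 181 and 135 and the GSK3A arrays 295, 244, 321 and 220.3. In THP-1 they were 212, 212 and 224 against 287, 311, 254 and 310.0. IFI16 was thus above every control in all GSK3A arrays of these lines, and in HL-60 as well, where controls were 41.5 to 52.2 and GSK3A arrays 56.2 to 96.2.

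TRIM22 intensities in MOLM-14 were 921, 974 and 1193 in controls, 1409 and 1755 with hairpin 5, and 1579 and 1516 with hairpin 6. In HL-60 the TRIM22 controls were 50.7, 59.2 and 54.5, hairpin 5 gave 129.6 and 104, and hairpin 6 gave 71.1 and 77.8. In U937 they were 116, 114 and 124 against 196, 187, 156 and 213. In THP-1 the TRIM22 controls ran from 182 to 224, hairpin 5 gave 283 and 246, and the hairpin 6 arrays lay on either side of the controls at 161 and 253. TRIM14, an adaptor of mitochondrial antiviral signalling, rose by 0.28 ± 0.05. Its THP-1 controls were 569, 595 and 590.0 and its GSK3A arrays 779.7, 789, 736 and 792, with no overlap.

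Of the membrane and secreted members BST2, which tethers budding virus, rose by 0.37 ± 0.07 and LGALS3BP, a secreted galectin-binding glycoprotein, by 0.10 ± 0.03, while IFITM1 did not pass (0.13 ± 0.11). BST2 controls in HL-60 were 124, 131 and 110.4, hairpin 5 gave 218 and 211, and hairpin 6 gave 138 and 130.1, of which the lower lay within the control range. In MOLM-14 the BST2 controls were 189, 194 and 269, hairpin 5 gave 379 and 394, and hairpin 6 gave 238 and 322, the former below the control of plate column 7 (269). LGALS3BP differed from this form. In THP-1 its controls were 27.8, 22.2 and 22.2, hairpin 5 gave 36 and 25.3, and hairpin 6 gave 44.7 and 54.8, and in the other lines every control and GSK3A array lay between 6.11 and 8.96. Without THP-1 the change of LGALS3BP was −0.025.

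Of the 7 remaining members IFI6, IFI30 and IFI35 rose and IFI27, IFI44, IFI44L and XAF1 did not pass, with changes from −0.09 to 0.09. IFI6 intensities in MOLM-14 were 29.3, 39.8 and 35.5 in controls, 142 and 76.8 with hairpin 5, and 38.6 and 45.3 with hairpin 6. In U937 the IFI6 controls were 167, 166 and 206 and the GSK3A arrays 388, 297, 285 and 458. In THP-1 the controls were 1027, 994 and 972, hairpin 5 gave 1132 and 1156, and hairpin 6 gave 808 and 804. IFI6 in THP-1 was thus above the controls with hairpin 5 and below them with hairpin 6. IFI30, a lysosomal thiol reductase for antigen processing, rose by 0.31 ± 0.08 and IFI35, a leucine zipper protein, by 0.31 ± 0.05.

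**Figure D3:**
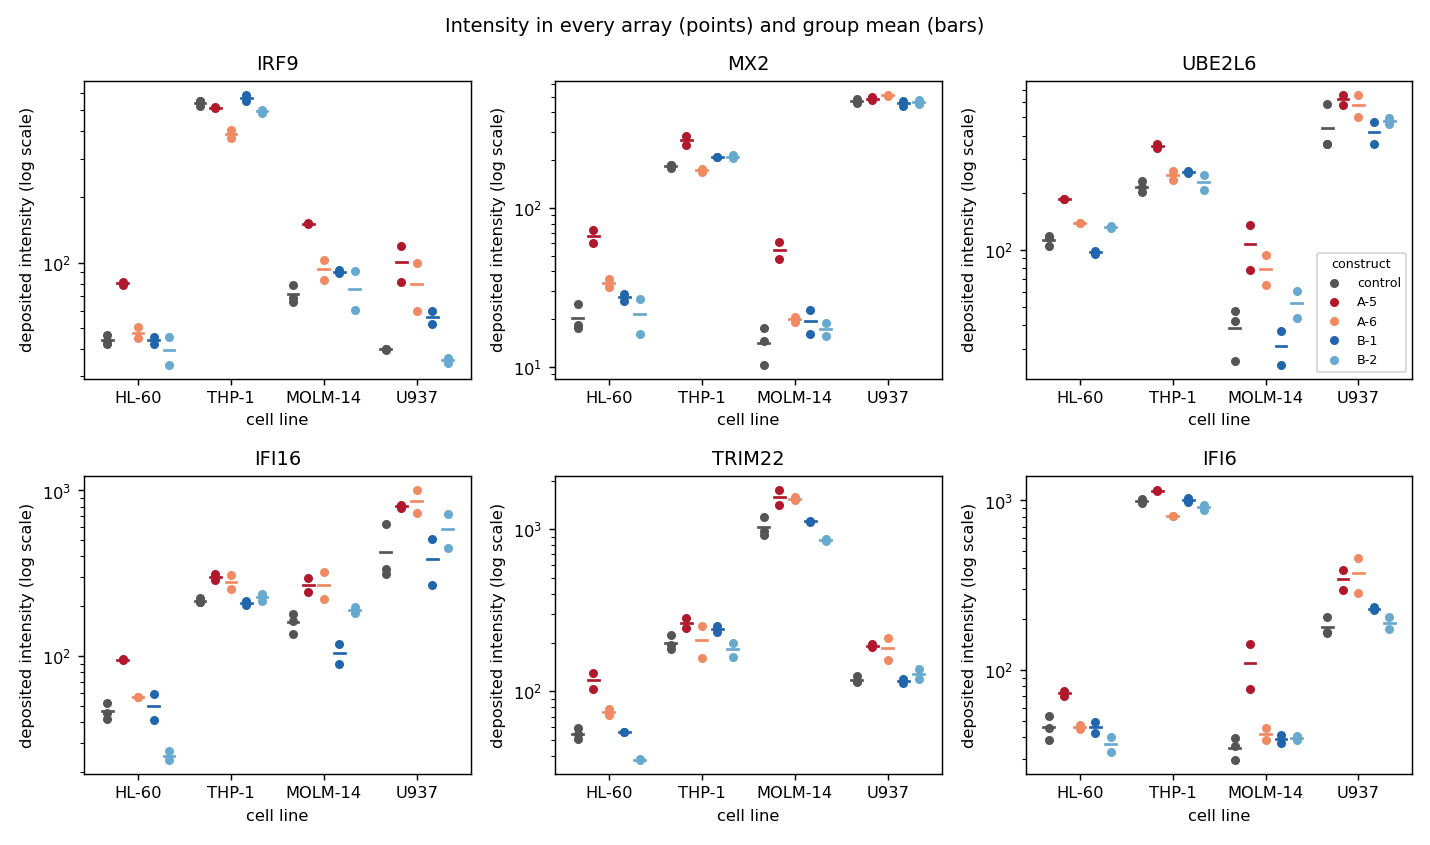
Deposited intensity (log scale) of IRF9, MX2, UBE2L6, IFI16, TRIM22 and IFI6 in every array by line; points are arrays, bars are group means, grey is control, A-5 and A-6 are the GSK3A hairpins and B-1 and B-2 the GSK3B hairpins. Hairpin A-5 lies above control for MX2 in HL-60 and MOLM-14, and hairpin A-6 lies below control for IRF9 and IFI6 in THP-1.

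With the GSK3B hairpins 0 of 38 members passed over the lines in limma, against 3.33% of all genes (1.78% higher, 1.55% lower). At an unadjusted p under 0.05 there were 5 members, all higher, against 13.1% of all genes, a share close to that of the members. The smallest adjusted p was 0.0726, for GBP2 (0.11 ± 0.03). The median member change was 0.04, and 26 members had a positive value. IFI16 had −0.06 ± 0.10, TRIM22 −0.03 ± 0.06, UBE2L6 0.07 ± 0.09, IFI6 0.04 ± 0.07 and IRF9 0.05 ± 0.06, and MX2 had 0.13 ± 0.05 with an adjusted p of 0.154. IFI16 in HL-60 read 41.3 and 59.2 with hairpin 1 and 26.7 and 23.5 with hairpin 2, against controls of 41.5 to 52.2. Both hairpin 2 arrays lay below all HL-60 controls, while those of hairpin 1 lay just below and above them. With the plate columns as a block IFIT3 and IFI30 passed (2 members, 10.1% of all genes). Leaving out 1 array gave 0 to 2 members, with 2 without HL-60 hairpin 2 replicate 1.

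The target comparison that uses no control array gave 14 members higher with GSK3A than with GSK3B hairpins and 1, USP18, lower. Among all genes 21.8% passed, 10.7% higher and 11.2% lower. IFI16 differed by 0.70 ± 0.09, TRIM22 by 0.52 ± 0.05, UBE2L6 by 0.52 ± 0.08, BST2 by 0.43 ± 0.06, IFI6 by 0.41 ± 0.06 and IFI35 by 0.36 ± 0.05, with limma adjusted p between 3.2e-08 and 2.1e-05. In HL-60 the IFI35 arrays read 88.3 and 97.2 (hairpin 5) and 62.4 and 70.2 (hairpin 6), against 66.9 and 64.3 (hairpin 1) and 42.5 and 42.9 (hairpin 2). In MOLM-14 the IFI35 arrays read 199.9, 140.0, 119 and 123 with the GSK3A hairpins and 107, 120.3, 93.6 and 105 with the GSK3B hairpins. The IFI35 arrays of the targets overlapped narrowly in both lines. MX1, IFIT1, IRF7, GBP2, SP110 and IFI30, which rose with GSK3A hairpins against control, did not pass here, with differences from 0.02 to 0.17. Within plate columns 1 to 6 there were 8 members (7.73% of all genes) and within columns 7 to 11 there were 2 (3.18%). With the plate columns as a block SP110, IFI30 and IFITM1 passed as well (18 members, 33.8% of all genes). Leaving out 1 array ended the call of IFIH1 in 16 of 44 fits and that of USP18 in 12.

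The GSK3A hairpins differed from each other in these genes. Hairpin 5 raised 21 members and lowered 0 (22.1% of all genes passed, 11.5% higher and 10.6% lower), with a median of 0.18. Hairpin 6 raised 11 and lowered 4, EIF2AK2, OAS2, IFIT5 and USP18 (16.7% of all genes, 8.8% higher and 7.88% lower), with a median of 0.06. Both hairpins share the control arrays, and 10 members rose with each of them. The share of all genes that rose with both was not counted, so this overlap is not read as agreement of the hairpins. With hairpin 5 UBE2L6 rose by 0.75 ± 0.10, MX2 by 0.74 ± 0.06, IFI16 by 0.71 ± 0.12 and IFI6 by 0.70 ± 0.08. With hairpin 6 IFI16 rose by 0.57 ± 0.12, UBE2L6 by 0.42 ± 0.10, TRIM22 by 0.37 ± 0.07 and IFIH1 by 0.26 ± 0.09. The count for hairpin 6 fell from 15 to 7 without HL-60 hairpin 6 replicate 2 and to 9 without the THP-1 control replicate 1.

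The direct test of hairpin 5 against hairpin 6 called 18 members higher and 1, LGALS3BP, lower with hairpin 5, against 16.8% of all genes, 8.63% higher and 8.17% lower. MX2 differed by 0.54 ± 0.06, IFI6 by 0.49 ± 0.09, IRF9 by 0.46 ± 0.07 and IFIT1 by 0.43 ± 0.08 (limma adjusted p from 2.3e-07 to 5.2e-04). IFIT2, IFIT5, EIF2AK2, OAS2, ISG15 and XAF1, which did not pass for the target as a whole, also differed between the hairpins. IFI16 (0.14 ± 0.13) and UBA7 (0.07 ± 0.06) did not pass this test. In THP-1 the member median was 0.19 with hairpin 5, with 34 of 38 members positive, and −0.11 with hairpin 6, with 14 positive. In U937 these medians were 0.15 and 0.14. The mean log2 level of all members in the THP-1 hairpin 6 arrays was 7.18 and 7.43, the widest gap between 2 arrays of a group, with controls at 7.37, 7.43 and 7.43.

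**Figure D4:**
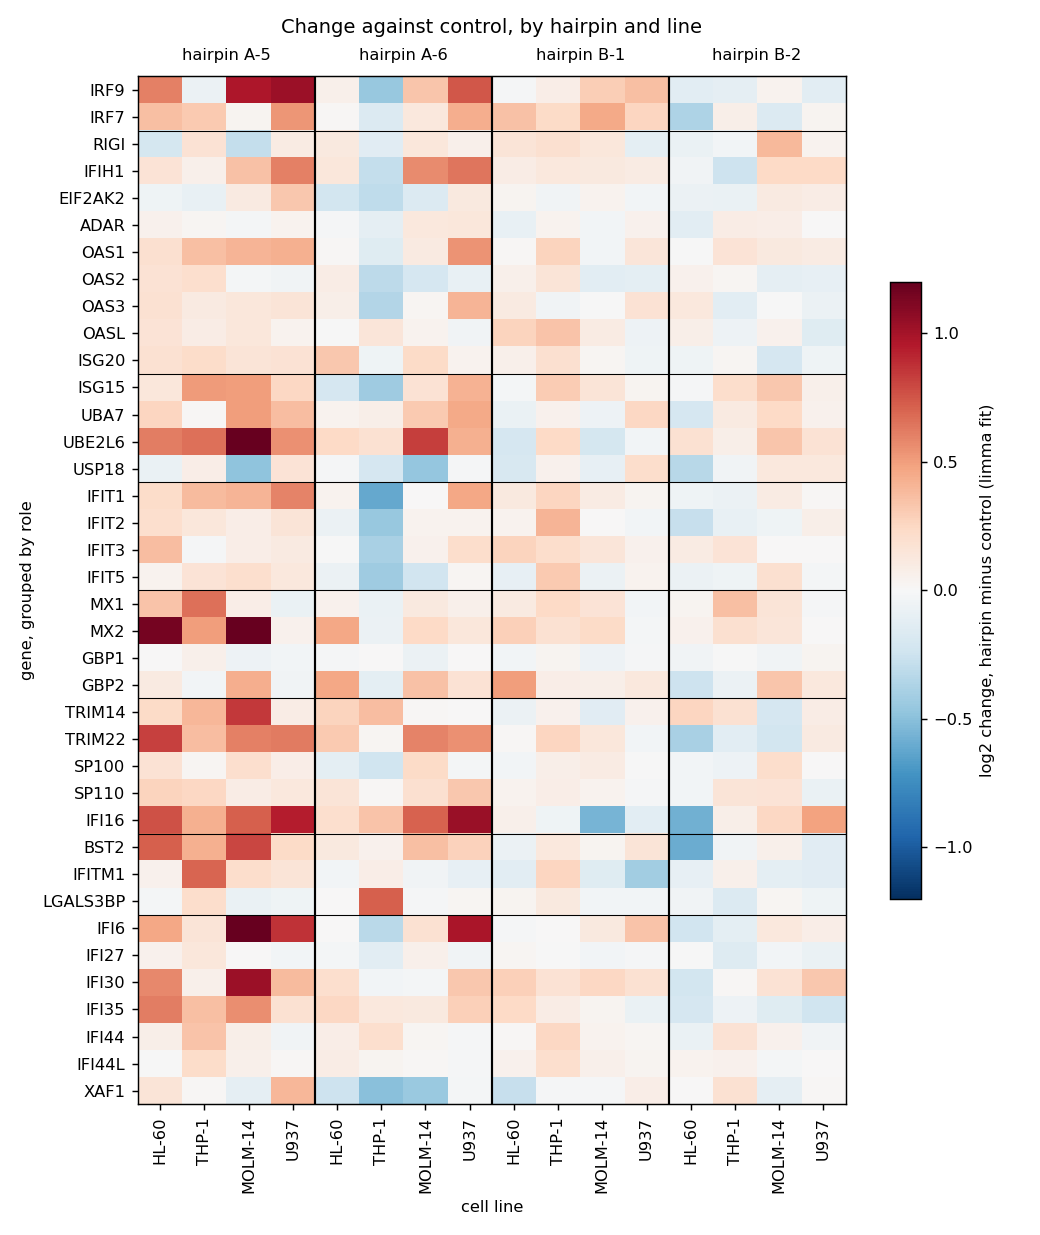
Log2 change of each member (rows, grouped by role) against the control of the same line for each hairpin and line (columns); red is higher, blue lower, colours are clipped at 1.2. Hairpin A-5 columns are mostly red, and the THP-1 column of hairpin A-6 has 24 of 38 members below 0.

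The GSK3B hairpins also differed in a few members. Hairpin 1 raised 2 members, IRF7 by 0.32 ± 0.08 and GBP2 by 0.20 ± 0.04 (4.61% of all genes passed, 2.42% higher and 2.19% lower), and hairpin 2 changed 0 in limma (6.29% of all genes, 3.34% higher and 2.95% lower). At an unadjusted p under 0.05 hairpin 2 had 5 members, against 17.4% of all genes. In the direct test 6 members were higher with hairpin 1 than with hairpin 2 (11% of all genes, 5.27% higher and 5.71% lower): IRF7 by 0.43 ± 0.09, IRF9 by 0.26 ± 0.07, TRIM22 by 0.25 ± 0.08, IFI35 by 0.23 ± 0.07, IFIT2 by 0.19 ± 0.05 and GBP2 by 0.16 ± 0.05. IRF7 in HL-60 read 21.6, 26.4 and 31.5 in controls, 39.9 and 36.7 with hairpin 1, and 18.8 and 16 with hairpin 2. In THP-1 the IRF7 controls were 146, 131 and 153, hairpin 1 gave 166 and 171, and hairpin 2 gave 150.1 and 151. IRF7 was thus above all controls with hairpin 1 in both lines. GBP2 in HL-60 read 20.1, 25.3 and 24 in controls and 37.4 and 41.3 with hairpin 1. Leaving out HL-60 hairpin 1 replicate 1 left 1 member for hairpin 1 and 3 in the direct test, leaving out U937 hairpin 1 replicate 1 left 1 for hairpin 1, and leaving out its replicate 2 gave 4.

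Within single lines the GSK3A hairpins raised 14 members and lowered 1 in MOLM-14, where 15.9% of all genes passed (8.33% higher, 7.6% lower). They raised 9 in U937, where 6.68% passed (3.63% higher, 3.06% lower), and 6 in HL-60, where 9.03% passed (4.06% higher, 4.97% lower). They raised 2 in THP-1, where 2.01% passed (1.22% higher, 0.789% lower). In MOLM-14 UBE2L6 rose by 1.01 ± 0.17, IFI6 by 0.74 ± 0.14 and MX2 by 0.74 ± 0.10, and USP18 fell by 0.47. In U937 IFI16 rose by 0.99 ± 0.20, IFI6 by 0.92 ± 0.14 and IRF9 by 0.89 ± 0.11. In HL-60 MX2 rose by 0.81 ± 0.10, TRIM22 by 0.57 ± 0.12 and IFI35 by 0.43 ± 0.10, and BST2, GBP2 and ISG20 rose as well. In THP-1 LGALS3BP rose by 0.46 ± 0.06 and TRIM14 by 0.38 ± 0.09. TRIM22 passed in each line except THP-1, where it had 0.19 ± 0.12. The HL-60 count was 3 without its control replicate 1. The THP-1 count was 1 without any single control, without either hairpin 5 array, and 5 without hairpin 6 replicate 1.

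Arrays of the same plate column set deviated together in MOLM-14 and U937. For the hairpins the column set is also the replicate number, so plate position and other differences between the replicates cannot be told apart. The difference between the column sets was taken for each construct of a line and correlated across genes between constructs. The r ran from 0.56 to 0.75 in MOLM-14 and from 0.76 to 0.82 in U937. It ran from −0.10 to 0.15 in THP-1 and from −0.03 to 0.12 in HL-60. With the column set as a block in each line, the GSK3A hairpins changed 16 members in MOLM-14 (27.9% of all genes), 16 in U937 (15.9%), 13 in HL-60 (19.9%) and 7 in THP-1 (7.44%). UBE2L6, TRIM14, IFI16, BST2, MX1, IFITM1 and LGALS3BP made up the THP-1 set, all higher. IFI16 in U937 had 0.88 ± 0.11 and UBE2L6 in MOLM-14 had 1.09 ± 0.07 in this fit. In the single lines the GSK3B hairpins changed 0 members each without the block. Of all genes 0.995% passed in HL-60 (0.411% higher, 0.584% lower), 0.214% in U937 (0.0822% and 0.132%), 0.0493% in THP-1 (0.0164% and 0.0329%) and 1.42% in MOLM-14 (0.814% and 0.608%). At an unadjusted p under 0.05 these limma counts were 2, 1, 3 and 1 in that order, against 8.75%, 5.70%, 3.16% and 10.7% of all genes.

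The size of the GSK3A response differed between lines for 6 members in the F-test of the difference, against 7.86% of all genes. They were IRF9 (limma adjusted p = 1.3e-04), LGALS3BP (1.5e-04), MX2 (8.4e-04), IFI6 (0.00341), USP18 (0.00649) and GBP2 (0.00736). IRF9 had log2 differences of 0.34 in HL-60, 0.89 in U937, −0.26 in THP-1 and 0.65 in MOLM-14. MX2 had 0.81, 0.10, 0.21 and 0.74 in the same order, so that its small values fell in the lines where MX2 was highest in control cells. GBP2 in MOLM-14 read 25.5, 33.6 and 30.7 in controls and 45.9, 45.1, 42.8 and 42.1 with the GSK3A hairpins. With the plate block 17 members passed (25% of all genes), and without THP-1 hairpin 6 replicate 2 the count was 10. The GSK3B response differed between lines for 0 members in limma (0.214% of all genes). At an unadjusted p under 0.05 there was 1 member, against 5.22% of all genes.

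**Figure D5:**
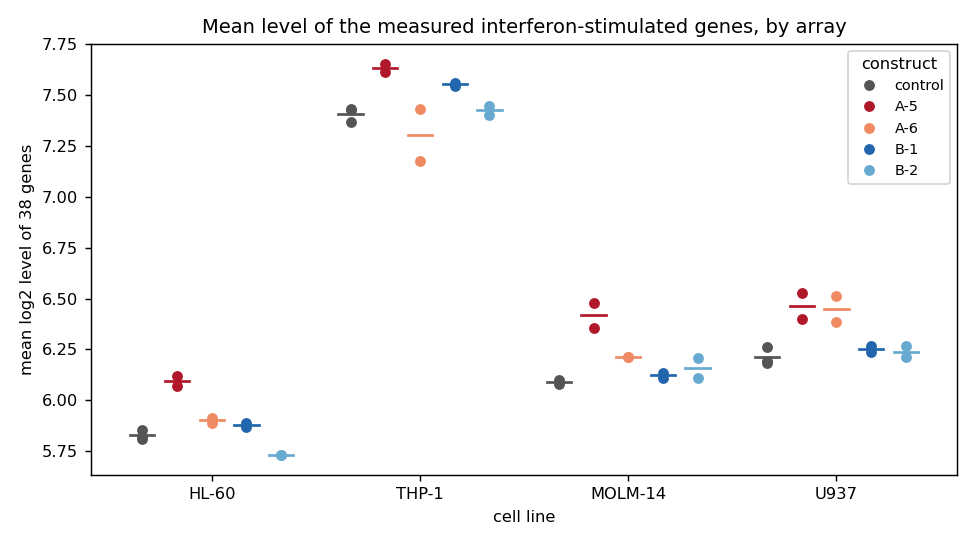
Mean log2(intensity + 16) of the 38 measured members in each array, by line; points are arrays, bars are group means, A-5 and A-6 are GSK3A hairpins and B-1 and B-2 GSK3B hairpins. THP-1 arrays lie between 7.18 and 7.66 and those of the other lines between 5.73 and 6.53.

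Counted in both directions together, genes of the rest of the pathway were called about as often as all genes with the GSK3A hairpins. More of them rose than fell. Of 56 further genes for receptors, kinases, factors, inducers and brakes, 49 were measured. With the GSK3A hairpins 9 rose and 2 fell (22.4%), with a median of 0.01. Among all genes 21% passed, 10.8% higher and 10.2% lower. The receptor chain IFNGR2 rose by 0.30 ± 0.04, IFNAR2 by 0.25 ± 0.05 and IFNGR1 by 0.23 ± 0.04. Of the receptor kinases JAK1 rose by 0.25 ± 0.04 and TYK2 by 0.19 ± 0.06, and the phosphatase PTPN6 rose by 0.24 ± 0.03. UNC93B1, which escorts endosomal Toll-like receptors, fell by 0.27 on the log2 scale. IFNAR1 had 0.00 ± 0.05 and the factor IRF1 0.05 ± 0.07, and neither passed. With the GSK3B hairpins 3 of 49 rose (6.12%, against 3.33% of all genes), STAT3 by 0.17 ± 0.03, JAK1 by 0.15 ± 0.04 and the adaptor MYD88 by 0.14 ± 0.03, of which STAT3 was named after its values were seen. The 49 genes include 15 interferon genes, whose transcripts had intensities between 4.12 and 17.8. No group mean of these 15 reached the median of the array medians, and the share called without them was not counted.

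Some markers of myeloid cells moved beside the members with the GSK3A hairpins, and their part in the result was not tested. Of 8 measured myeloid markers 3 rose, the integrin ITGAM (0.39 ± 0.06), CSF3R (0.36 ± 0.08) and CD14 (0.33 ± 0.03). MPO, a primary granule enzyme, fell by 0.39 on the log2 scale. Among all genes 10.8% rose and 10.2% fell in this contrast. Changes of the other measured markers, SPI1, CEBPA, CD68 and CSF1R, are not given. MPO also fell by 0.40 with the GSK3B hairpins, and the other markers are not given for these hairpins. The summed intensity of the 8 markers ran from 1367 to 8386 in control arrays and from 1219 to 7494 in GSK3A arrays. Of the 4 measured plasmacytoid dendritic cell markers IL3RA and NRP1 rose and TCF4 fell, with sums of 191 to 281 in control and 135 to 315 in GSK3A arrays. The sums for B cell markers were 41.2 to 52.9 and 42.7 to 48.6.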

How the data were processed

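RNA was measured on Affymetrix high-throughput human arrays. Per the labels, each array is 1 sample of a line and hairpin. The authors deposited a linear intensity for each of 22277 probe sets. The submitters' processing notes name RMA and MAS5, and the choice between them is not given in the sources used here.

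The intensities deposited by the authors were turned into log2(intensity + 16) and quantile-normalized, because the array medians spanned 0.154 on the log2 scale. The pseudocount shrinks changes of dim genes. Control probe sets (62) and probe sets naming several genes (568) or none (1923) were left out. Of the 19724 probe sets that name a single gene, 19707 took their current symbol through the Entrez identifier. A model with a mean for each of 20 groups was fitted by limma (version 3.58.1, R 4.3.3) (24 residual degrees of freedom). The fit was tested on simulated data with independent noise for each array. The simulated GSK3A effect was the same for both hairpins and all lines, and no plate effect was added. The simulation therefore could not check p-values under the differences between plate columns or hairpins reported above. Target contrasts average the hairpins and then the lines, so their p-values do not hold the spread between hairpins. GSK3A and GSK3B contrasts share the control arrays. All tests are two-sided.

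The members, roles, pathway and marker lists were chosen with earlier results of these data known. Every member may be named. Values by array are given for members with the largest changes: up to 6 per contrast of targets over the lines, 3 per direction in a line, 4 per hairpin comparison and 5 per test between lines. Up to 6 genes of the pathway list were named by adjusted p, and IRF1, IFNAR1, IFNAR2, JAK1 and TYK2 always.

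By the rule that every pair must correlate above 0.1, replicate numbers were not taken as pairs: deviations correlated with r from −0.06 up, with medians of 0.76 in U937, 0.59 in MOLM-14, 0.06 in HL-60 and 0.02 in THP-1. For the hairpins these numbers equal the plate column sets, and the controls differ. The column sets met the rule in MOLM-14 (r from 0.56 up) and U937 (from 0.76 up), but not in HL-60 or THP-1. The main fit holds no term for them, so its counts and standard errors leave this pairing out. Alternatives were the deposited values without normalization, median scaling, cyclic loess, other pseudocounts, no dim genes, the mean of probe sets, blocks, a random block, and leaving out each array or line. The fits within plate columns were added after the data were seen.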

Additional observations from a re-analysis of the deposited data

Results flagged for a closer look

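The GSK3A response differed between the lines, by the moderated F-test of limma, for 6 members. The adjusted p was 1.3e-04 for IRF9, 1.5e-04 for LGALS3BP, 8.4e-04 for MX2, 0.00341 for IFI6, 0.00649 for USP18 and 0.00736 for GBP2. IRF9 had −0.26 in THP-1 and 0.89 in U937, LGALS3BP had 0.46 in THP-1 and between −0.05 and −0.01 elsewhere, and USP18 had −0.47 in MOLM-14 and between −0.06 and 0.08 elsewhere.

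The same test passed for 4 pathway genes that are no members, JAK1 (adjusted p = 0.00434), STAT3 (0.00505), PTPN11 (0.00879) and TRAF3 (0.0296). The response of GSK3B to its own hairpins differed between the lines as well (limma adjusted p = 0.00205).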

How the results depend on the processing

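Deposited values without normalization, median scaling, cyclic loess, other pseudocounts, removal of dim genes and the mean of probe sets left the member counts of the GSK3A contrasts within 1.5 times those reported. Counts for the GSK3B hairpins over the lines were 1 with the deposited values and 1 with a pseudocount of 64, and in HL-60 1 with a pseudocount of 1, in place of 0. For the plate column block, brackets hold the main count and the share of all genes called with the block. It gave 2 for the GSK3B hairpins over the lines (0, 10.1%), 5 for hairpin 1 (2, 12.9%) and 3 for hairpin 2 (0, 15.9%). The share of members called was near that of all genes for hairpin 1 and below it for hairpin 2. There were 11 for hairpin 1 against 2 (6, 22.5%). For GSK3A there were 13 in HL-60 (6, 19.9%), 7 in THP-1 (2, 7.44%) and 16 in U937 (9, 15.9%). There were 2 for GSK3B in HL-60 (0, 4.04%) and 17 in the test of the GSK3A response between lines (6, 25%). Replicate numbers were not taken as a pairing, although their median correlation was 0.59 in MOLM-14 and 0.76 in U937. The replicate block gave 1 for the GSK3B hairpins over the lines (8.52% of all genes), 2 for hairpin 2 and 10 for hairpin 1 against 2. It gave 4 for GSK3A in THP-1, 1 each for GSK3B in MOLM-14 and U937, and 12 in the test between lines. For the GSK3A hairpins over the lines this block called 28.9% of all genes, against 21% in the main fit. There 19 members rose and 1 fell, so larger counts with this block are not read as gains for the members. The random block gave 13 for GSK3A (21). Within plate columns 1 to 6 there were 9 for GSK3A and 8 for GSK3A against GSK3B (15), and within columns 7 to 11 there were 0 and 2. Without THP-1 LGALS3BP had −0.025 against control and −0.0088 against GSK3B, and without MOLM-14 USP18 had 0.018 against GSK3B. Leaving out single arrays gave 7 to 17 members for hairpin 6, 3 to 7 in HL-60, 1 to 5 in THP-1, 6 to 10 in the test between lines, 1 to 4 for GSK3B hairpin 1, 3 to 8 for hairpin 1 against 2, 0 to 1 for hairpin 2, 0 to 2 for GSK3B in MOLM-14 and 0 to 2 for GSK3B over the lines, the last with 1 without THP-1 control replicate 2, either THP-1 GSK3A hairpin 6 array or MOLM-14 control replicate 2. UBE2L6 and TRIM22 kept their call against GSK3B in all 16 alternatives other than single arrays. Member counts given without a share of all genes, here or above, were not compared with all genes. The causes were not tested. Members near or below the array median, such as GBP1 and LGALS3BP outside THP-1, are limited by signal over background.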
